A study of Mus musculus with 3 samples.

Results

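Diplotene to dividing spermatocytes are the cells in which male meiosis leaves its long prophase and carries out its divisions. They were picked here by their own transcripts, from single-cell RNA counts of mouse testis. A cell barcode entered when it held at least 10000 unique molecular identifiers (UMIs, each standing for 1 captured RNA molecule), at most 10% of them from mitochondrial (mt-) genes and under 2% from the protamine and transition protein genes Prm1, Prm2, Tnp1 and Tnp2. It became a member when Aurka, Cdc25c and Ccna1 together gave at least 5 UMIs, no fewer than the pachytene genes Piwil1, Mybl1 and Tdrd1 together and more than the spermatid genes Acrv1, Spaca1, Tex36 and 1700001P01Rik together. The rule found 551 members among 4563 barcodes that passed the quality limits, of 33038 barcodes deposited. The series compared adult testes of wildtype mice with testes carrying a conditional knockout of Tex10, a nuclear protein described in ribosome assembly, to examine the role of Tex10 in sperm formation. There were 2 wildtype libraries of 1 mouse each and 1 knockout library that pooled the cells of 2 mice, all labelled with the strain C57BL/6N. Which Cre line was used and which exons it removes is not in the labels, and they give no ages beyond adult and no treatment.

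In spermatocytes, the cyclin-dependent kinase Cdk1 and its B-type cyclins bring about entry into division. The meiotic cyclin Ccna1 and the phosphatase Cdc25c act upstream of this step, and the kinases Aurka and Plk1 help to activate it and to build the spindle. The chromosomal passenger complex, built on Aurkb or its germ cell relative Aurkc, corrects the attachment of chromosomes. The anaphase promoting complex with Cdc20 then marks cyclin B and securin (Pttg1) for destruction, and chromosomes or sister chromatids part. In male meiosis 2 divisions follow without a round of DNA synthesis between them, and the X and Y chromosomes are kept silent through pachytene and are partly reactivated afterwards.

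The members numbered 187 in wildtype replicate 1, 169 in wildtype replicate 2 and 195 in the knockout library. They made up 13.9% of quality-passing barcodes (exact 95% binomial interval 12.1 to 15.9), 10.1% (8.72 to 11.7) and 12.6% (10.9 to 14.3) in that order. The knockout share thus lay between the wildtype shares, 0.52 percentage points above their mean, and the difference changed sign with the wildtype library used: it was −1.38 points against replicate 1 alone and 2.42 points against replicate 2 alone. Per cell of the pachytene class, defined by the same 3 gene sums, there were 0.392, 0.314 and 0.382 members. Per cell of the round spermatid class there were 0.385, 0.211 and 0.376. Wildtype replicate 2 had the lowest ratio in both, and the knockout library stayed close to wildtype replicate 1. Of 1342, 1668 and 1553 quality-passing barcodes, 192, 160 and 329 were in none of the 3 classes. Such barcodes count in the shares above but not in the ratios per class. Intervals here and below cover counting error only, since cells are not replicates and the knockout group has 1 library, so no p-value is given.

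Depth differed between libraries. Members held a median of 31582, 27265 and 44626 UMIs in the wildtype replicates 1 and 2 and the knockout library, and 9832804, 7538343 and 14050665 UMIs in all. After every cell was thinned to 10000 UMIs, the median number of genes detected was 3210, 3244 and 3257, and it was 3471 to 3498 in the pachytene class and 3381 to 3395.5 in the round spermatid class. No barcode sequence was shared between members of different libraries. Levels below are UMIs per 1000000 (CPM) of the summed cells of a library. They are counts at the 3′ end and were not divided by gene length, so levels of different genes are not compared. Knockout and wildtype members were compared by a fixed size rule. To pass, a gene needed a log2 ratio (of CPM plus 1) of 1 or more in size, with one sign, against each wildtype library. Its smaller ratio had to be at least 2 times the ratio between the wildtype libraries, and 20 CPM had to be reached in at least 1 library. Of 5481 genes compared, 49 passed (0.894%). The knockout level was the higher one in 21 (0.383%) and the lower one in 28 (0.511%). A gene was called leading when it had at least 20 CPM in members of every library and at least 2-fold more than in both the pachytene and the round spermatid class of each library; 113 of 4878 genes at that level were (2.32%).

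The rule genes describe the selection and test nothing. The rule chose cells by their transcripts, so every comparison of members with the other classes below is likewise a description with no test. Values below follow the order of the wildtype replicates 1 and 2 and the knockout library. Aurka stood at 388, 389 and 369 CPM in members, against 103 to 113 in the pachytene class and 79.1 to 114 in round spermatids. Ccna1 stood at 424, 424 and 332 CPM, against 45.7 to 49.2 and 170.5 to 210.3. Cdc25c was different: it gave only 7.53, 8.89 and 9.68 CPM in members (74, 67 and 136 UMIs), above the 1.15 to 2.14 CPM of the pachytene class but below the 19.0 to 22.0 CPM of round spermatids. At least 1 Cdc25c UMI was present in 31.6%, 31.4% and 38.5% of members, at median totals of 31582, 27265 and 44626 UMIs, and in 43.4%, 40.8% and 52.3% of round spermatids, at 28590.0, 23990.0 and 37703.5 UMIs. So the choice of members rested on Aurka and Ccna1, and Cdc25c did not set them apart from spermatids. At the edge of the rule, 2, 2 and 9 members had a sum of exactly 5 UMIs, and 5, 0 and 20 barcodes that met the other conditions stood just outside with 4.

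Pou5f2, a testis POU-domain transcription factor and the marker the rule did not use, stood at 194, 174 and 223 CPM in members, 132, 118 and 116 in the pachytene class and 6.97, 5.88 and 4.77 in round spermatids. Pou5f2 overlaps Fam172a on the same strand, so its counts here and below depend on how reads were assigned between these genes. A Pou5f2 UMI was seen in 59.4%, 57.4% and 64.1% of members against 10.5%, 10.6% and 13.7% of round spermatids. A cell without a UMI is not shown to lack the transcript at these depths. It was seen about as often in the pachytene class, in 51.8%, 47.9% and 53.4% of cells, at higher median totals of 47443, 33297 and 55013 UMIs. The pachytene marker sum was low but present in members (232, 238 and 241 CPM, against 1048 to 1229 in the pachytene class), and the sum of the 4 spermatid genes was 124, 128 and 73.7 CPM against 2490 to 2674 in round spermatids. The elongating spermatid markers, which include the protamine and transition protein genes limited by the rule, summed to 1547, 1816 and 1447 CPM in members. They summed to 1958 to 2613 CPM in the pachytene class and 3762 to 4246 CPM in round spermatids. Markers of cells other than germ cells gave little in most members. Macrophage markers summed to 0.712 to 0.996 CPM. Leydig markers gave 1.83, 79.2 and 3.20 CPM, and in wildtype replicate 2 they came mainly from 2 cells with at least 20 such UMIs, 1 of which held 62.3% of them. Sertoli markers gave 50.04, 72.7 and 82.2 CPM, with 2, 2 and 9 cells of at least 20 UMIs. Early spermatocyte markers gave 134, 177 and 199 CPM, with 10, 14 and 47 such cells, and spermatogonial markers 112, 129 and 149 CPM. Peritubular myoid markers gave 18.2, 2.26 and 9.82 CPM, mainly from 1 cell each in wildtype replicate 1 and the knockout library. Insl3, the Leydig hormone, was at 0 in members of wildtype replicate 1 and the knockout library.

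**Figure D1:**
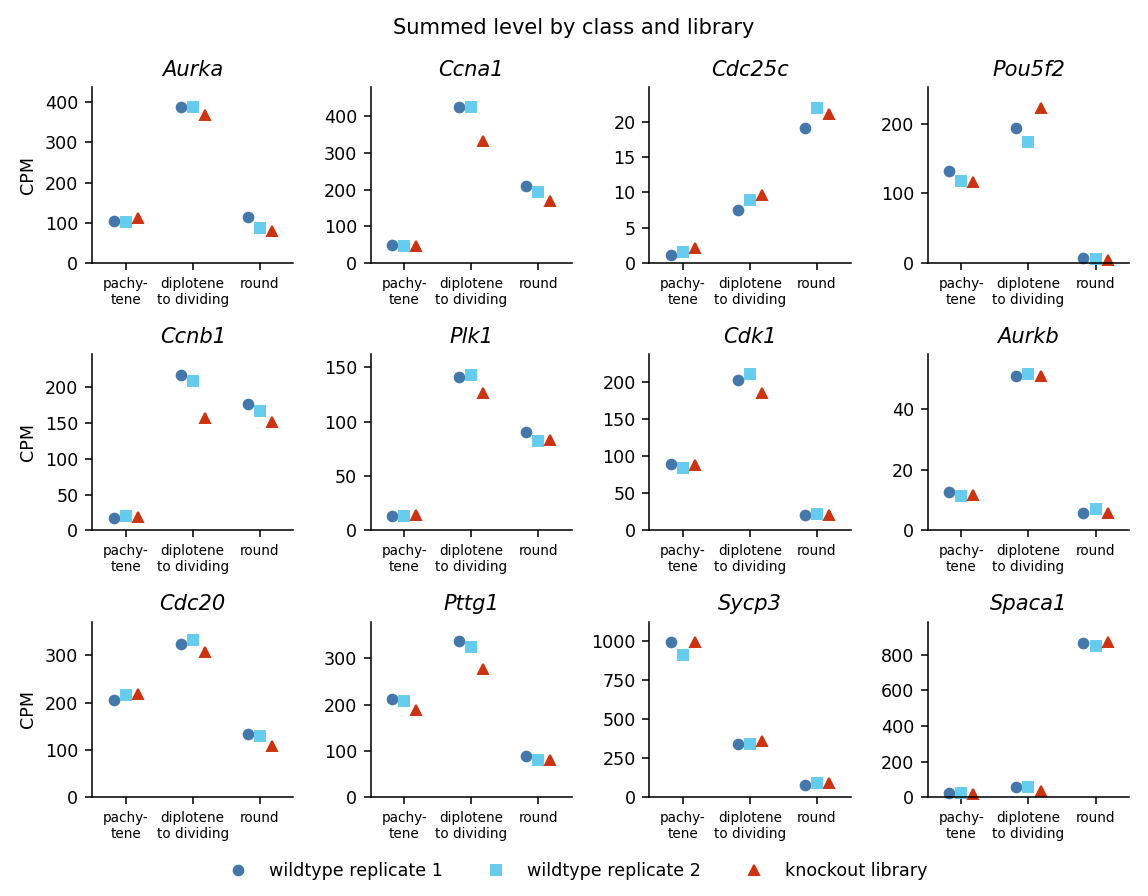
Summed level in CPM of 12 genes in the pachytene class, the diplotene to dividing spermatocytes and the round spermatid class; each point is 1 library, with no error bar because there is 1 value per library. Aurka, Ccnb1, Plk1, Cdk1 and Aurkb lie highest in the diplotene to dividing cells in all 3 libraries, while Cdc25c and Spaca1 lie highest in round spermatids and Sycp3 in the pachytene class. Aurka, Ccna1, Cdc25c and Spaca1 are rule genes and describe the selection.

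Tex10 itself (ENSMUSG00000028345; GRCm38 chromosome 4, 48430858 to 48473459, minus strand) was present in members of every library. In the wildtype replicates 1 and 2, 672 and 536 UMIs gave 68.3 CPM (63.3 to 73.7) and 71.1 CPM (65.2 to 77.4). In the knockout library 826 UMIs gave 58.8 CPM (54.8 to 62.9). The knockout interval lay below both wildtype intervals, and the level was 0.84 times that of the wildtype libraries, which averaged 69.7 ± 1.95 CPM (SD, n = 2). The log2 ratio of −0.24 did not pass the size rule. The labels do not say which exons are deleted, and counts at the 3′ end need not include them, so this level does not check the knockout. Tex10 overlaps Invs on the opposite strand. Within round spermatids Tex10 stood at 40.2, 36.9 and 27.5 CPM and in the pachytene class at 61.6, 58.3 and 53.8 CPM. In the cells with the highest UMI totals, described below, the knockout level was 49.9 CPM (45.5 to 54.7) against 62.9 (56.4 to 70.0) and 68.0 (60.3 to 76.5). In the cells with middle totals the knockout value was the highest, at 90.7 CPM (76.2 to 107) against 78.7 (66.4 to 92.6) and 75.4 (62.3 to 90.5), on 138, 145 and 115 UMIs, and in those with low totals it was 69.3 CPM against 72.0 and 74.3. Without members of a rule sum under 10, it was 62.0 CPM in the cells with low totals, against 72.1 and 71.3. The knockout level there was thus below both wildtype levels with and without those members. With the 3 groups of totals weighted equally, the log2 ratio was −0.04. The part that the groups' shares play in the ratio over all members was not tested beyond this. Of the proteins that form a complex with Tex10, Wdr18 (133, 117 and 135 CPM), Pelp1 (54.2, 53.1 and 63.0) and the AAA ATPase Mdn1 (27.4, 29.98 and 40.9) did not pass the size rule. Of the 7 genes listed for the complex, 4 reached 20 CPM in members of a library; Senp3, a SUMO protease of the complex, did not, at 15.6, 14.3 and 13.9 CPM.

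Genes of the division machinery were described from a list of 48 genes that held none of the rule genes. Of these, 39 reached 20 CPM in members of at least 1 library and could be compared. Of the 39, 23 were above the pachytene class in all 3 libraries and 34 above round spermatids, where 47.6% and 73% of all 5481 genes compared were above in the same way. As a sum the list gave 4682, 4728 and 4754 CPM in members, 3646 to 3797 CPM in the pachytene class and 1777 to 1964 CPM in round spermatids. Members were highest in each library. The sum in members differed between the knockout library and the wildtype mean by a log2 ratio of 0.02. That sign changed under other scalings (−0.02 with DESeq2 size factors and −0.01 with edgeR TMM), so the direction was not settled. The ratio also varied under other settings, given in the closing section. With 1 knockout library, neither a difference nor its absence can be judged.

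Of 16 genes compared for entry into meiotic M phase, 2 were the rule genes Aurka and Ccna1. Of the other 14, 6 were above the pachytene class in every library and 7 below it, near the shares of all genes. Ccnb1, a B-type cyclin, stood at 218, 209 and 158 CPM in members against 16.7 to 20.6 in the pachytene class and 151 to 177 in round spermatids. Plk1, the kinase that acts from entry to exit of M phase, stood at 141, 144 and 127 CPM against 12.9 to 13.97 and 82.0 to 91.0. Both were low in the pachytene class and higher in members and in spermatids. Cdk1 itself was higher in members than in either class, at 203, 211 and 185 CPM against 84.8 to 89.8 and 20.3 to 21.4. Ccnb2 changed less across the classes, at 272, 265 and 246 CPM in members, 168 to 169 in the pachytene class and 240 to 250.2 in round spermatids. Hspa2, the chaperone of the Cdk1 and cyclin B complex in spermatocytes, was at 1425, 1333 and 1371 CPM in members and 1575 to 1643 in the pachytene class. Cks2, a small Cdk-binding protein, was far higher in the pachytene class (937 to 1134 CPM) than in members (353, 371 and 387 CPM). Pseudogenes share 42.3% of the 3′ end of Cks2, which leaves its level uncertain. Among the 16 genes compared of a list for entry into meiotic M phase, none passed the size rule between knockout and wildtype members. Of all genes compared 0.894% did, so a list of this size is not set apart by it. Ccnb1 had a log2 ratio of −0.44. Ccna1 had −0.35, but it is a rule gene, so its level in members depends on the selection and this difference tests nothing.

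Of 11 genes compared for the Aurora kinases and the chromosomal passenger complex, 1 was the rule gene Aurka. Of the other 10, 7 were above the pachytene class in every library and 8 above round spermatids. Of all genes compared, 47.6% and 73% were above in the same way, so the second count was near its share. Aurkb, its catalytic subunit in mitotic cells, stood at 50.6, 51.3 and 51.0 CPM in members against 11.4 to 12.7 in the pachytene class and 5.55 to 7.14 in round spermatids. The values of the 3 libraries were within 1 CPM of each other. Aurkc, the germ cell paralog, stood at 62.3, 64.2 and 59.6 CPM against 22.5 to 27.3 and 20.2 to 24.5, and Incenp, the scaffold, at 62.2, 69.1 and 71.9 CPM against 28.2 to 31.1 and 25.6 to 27.9. Birc5 (survivin) stood at 426, 412 and 406 CPM against 216 to 234 and 135 to 167. Cdca8 (borealin) did not follow them: it gave 282, 288 and 304 CPM in members and 277 to 304 in the pachytene class. Haspin, the kinase whose histone mark recruits the complex, was at 543, 592 and 569 CPM in members and at 503 to 548 CPM in round spermatids. It lies within Itgae on the opposite strand, so its counts depend on how strand was used. Of the 11, 4 (Aurka, Aurkb, Aurkc and Incenp) were leading genes, Aurka being a gene of the rule. Of all 5481 genes compared, 113 were leading, or 2.32% of the 4878 genes at 20 CPM in every library. None of the 11 passed the size rule, where 0.894% of all genes did.

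Cdc20 stood at 324, 332 and 307 CPM in members, 206 to 219 in the pachytene class and 108.5 to 134 in round spermatids; 27.54% of its 3′ end is shared with pseudogenes, which leaves its level uncertain. Securin, Pttg1, stood at 339, 325 and 277 CPM, against 188 to 212 and 80.7 to 90.4. The E2 enzyme Ube2c stood at 79.2, 83.4 and 78.0 CPM against 21.2 to 23.5 and 58.9 to 64.6, whereas its partner Ube2s was high in every class (1910.1, 1683 and 1916 CPM in members). Of 15 genes of the anaphase promoting complex and its regulators, 10 were above the pachytene class in all libraries and 4 below. Of all genes compared, 47.6% were above and 44.2% below in the same way. Of 15 checkpoint and kinetochore genes, 4 were above the pachytene class and 11 below, against 44.2% of all genes below. Spc25, a subunit of the Ndc80 complex, was one of the 4, at 103, 99.1 and 72.7 CPM in members against 15.7 to 18.6 in the pachytene class. Cenpf (371, 401 and 418 CPM) and Cenpe (113, 110.4 and 120.3) were above it too, and Bub3 (138, 136.5 and 135) was not. Of 17 genes of spindle motors and cytokinesis, 8 were above the pachytene class and 8 below, near the shares of all genes. Kif23, the central spindle kinesin, was higher in members (59.7, 55.3 and 50.7 CPM against 15.3 to 21.4), and Prc1, which bundles the same microtubules, was lower (193, 188.5 and 239 CPM against 363 to 372).

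Certain short words were more frequent in promoters of the division list than in those of the leading genes of members as a set. The sets overlap, since 6 genes, Cdk1 among them, belong to both. Sequences were read from RefSeq promoters on GRCm38.p6, which run from 250 bases before to 50 after each gene's first listed start, and 42 of the 48 division genes had one. TTTGAA, the core of the cell cycle homology region of late cell cycle promoters, was present on either strand in 29 of the 42 (69.05%), against 18.1% of 27025 promoters. CCAAT was present in 31 of 42 (73.8%) against 37.9%. Among 86 leading genes with a promoter the shares were 17.4% for TTTGAA and 31.4% for CCAAT, close to those of all promoters. AACNGNC, a MYB-like word, was present in 47.6% of division genes, 43.0% of leading genes and 32.8% of all promoters. The full cyclic AMP response element TGACGTCA was present in 2 division genes (4.76%) and 1 leading gene (1.16%), against 1.88% of all promoters. Counts this small set neither group apart. The leading gene A930038B10Rik, not shown, holds both TTTGAA and CCAAT in its promoter. The 250 bases before the start are shown for 3 division genes, for the marker Pou5f2 and for Dnaic2, a leading gene, as examples with and without these words. Each is written 5′ to 3′ on the gene's strand in lower case, with capitals for matches to TTTGAA or CCAAT on either strand (TTCAAA and ATTGG are the reverse complements).
Cdk1 (chr10:69352913-69353162, minus strand): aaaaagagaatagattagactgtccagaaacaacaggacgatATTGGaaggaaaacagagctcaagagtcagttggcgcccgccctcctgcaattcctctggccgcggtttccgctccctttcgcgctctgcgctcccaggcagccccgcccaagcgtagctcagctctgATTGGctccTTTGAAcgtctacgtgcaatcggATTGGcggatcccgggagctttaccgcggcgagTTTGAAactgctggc
Cdc20 (chr4:118437344-118437593, minus strand): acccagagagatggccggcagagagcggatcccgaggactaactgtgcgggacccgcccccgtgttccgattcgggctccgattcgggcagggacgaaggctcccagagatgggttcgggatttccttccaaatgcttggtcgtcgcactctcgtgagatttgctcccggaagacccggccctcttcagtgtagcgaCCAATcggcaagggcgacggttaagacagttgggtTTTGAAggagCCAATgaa
Ccnb1 (chr13:100786487-100786736, minus strand): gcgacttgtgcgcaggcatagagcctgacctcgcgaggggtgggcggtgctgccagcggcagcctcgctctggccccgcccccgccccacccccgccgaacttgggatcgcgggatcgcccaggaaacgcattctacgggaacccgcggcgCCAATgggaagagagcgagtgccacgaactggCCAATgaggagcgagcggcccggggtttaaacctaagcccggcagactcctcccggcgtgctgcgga
Pou5f2 (chr13:78024652-78024901, plus strand): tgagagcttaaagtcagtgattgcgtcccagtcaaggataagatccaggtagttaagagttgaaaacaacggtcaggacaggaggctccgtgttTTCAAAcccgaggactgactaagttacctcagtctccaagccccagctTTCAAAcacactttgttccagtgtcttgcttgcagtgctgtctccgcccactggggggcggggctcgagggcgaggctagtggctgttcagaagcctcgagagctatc
Dnaic2 (chr11:114727169-114727418, plus strand): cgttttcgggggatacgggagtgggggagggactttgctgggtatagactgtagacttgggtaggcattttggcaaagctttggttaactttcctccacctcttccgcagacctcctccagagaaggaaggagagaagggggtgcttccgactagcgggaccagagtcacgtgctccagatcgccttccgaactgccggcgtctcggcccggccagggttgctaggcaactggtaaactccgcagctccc
Cdk1 holds 2 matches to TTTGAA and 3 to CCAAT, and Cdc20 holds 1 and 2. Ccnb1 holds 2 matches to CCAAT and none to TTTGAA, Pou5f2 holds 2 to TTTGAA and none to CCAAT, and Dnaic2 holds neither. A match is a description of letters and not a bound site.

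Of the 113 leading genes, 6 were of the division list (Cdk1, Aurkb, Aurkc, Incenp, Spc25 and Kif23). They were 15.4% of the 39 division genes compared. Of all 5481 genes compared, 113 were leading, or 2.32% of the 4878 genes at 20 CPM in every library. The 10 with the largest smallest ratio began with Nkx2-4, a homeobox gene, at 51.1, 45.9 and 50.8 CPM in members against 4.02 to 4.91 in the pachytene class and 8.35 to 11.3 in round spermatids. Chdh, choline dehydrogenase of mitochondria, stood at 28.4, 27.7 and 26.3 CPM against 4.84 to 5.93 and 0.80 to 1.55, and the spectrin Sptbn4 at 79.5, 89.4 and 89.6 CPM against 15.1 to 18.498 and 8.11 to 9.35. Asb4, a subunit of a ubiquitin ligase, stood at 111, 97.1 and 92.7 CPM against 17.6 to 22.5 and 20.7 to 27.7, and Dnaic2, an axonemal dynein chain, at 101.5, 96.6 and 94.2 CPM against 9.87 to 12.97 and 21.0 to 30.2. Aurkb, Gm6583, Dupd1, A930038B10Rik and D6Ertd474e complete the 10. None of the 10 passed the size rule between knockout and wildtype members, where 0.894% of all genes compared did. Their log2 ratios ran from −0.17 for Asb4 to 0.54 for A930038B10Rik, a long non-coding RNA at 25.9, 20.8 and 34.4 CPM. Across the 9 sums of class and library, the genes whose log2 level was most like that of the rule genes were 1700017G19Rik (Pearson r = 0.998), Cdc27, Tomm22, Ndufa12 and Dnaic2 (each r = 0.997). These correlations are over 9 sums from 3 libraries and describe them only.

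Genes of prophase and of spermatid formation were described from sums over all members, which do not show whether one cell held both. Of all 5481 genes compared, 44.2% were below the pachytene class in every library, and counts of genes below it in this paragraph stand beside that share. Of 7 synaptonemal complex and HORMA genes compared, 6 were below the pachytene class. The axial element proteins Sycp3 (342, 342 and 362 CPM against 909 to 996) and Sycp2 (162, 174 and 174 against 557 to 589) were among them, while Syce1, a central element protein, was above it (796, 797 and 819 CPM against 593 to 614). Of 5 cohesins compared, 4 were below; the meiotic subunit Smc1b stood at 288, 274 and 290.3 CPM against 561 to 588. Of 5 recombination genes, 4 were below, and Brca2 stood at 38.2, 41.5 and 43.7 CPM against 91.8 to 94.7. All 7 genes compared for silencing of the X were below, such as the checkpoint kinase Atr (112, 109 and 131 CPM against 275 to 289) and Mdc1 (40.9, 38.1 and 44.3 against 148 to 157). Of 12 acrosome genes compared, 2 were the rule genes Acrv1 and Spaca1. The other 10 were above the pachytene class in every library, against 47.6% of all genes. Spink2, an acrosomal protease inhibitor, stood at 2417, 2462 and 2298 CPM against 1307 to 1376 in the pachytene class and 1493 to 1704 in round spermatids. Zpbp2 stood at 728, 755 and 651 CPM against 262 to 290 and 450.1 to 493. The transcription factors were mixed. Tbpl1 (TRF2) peaked in members, at 1381, 1296 and 1127 CPM against 517 to 605 and 716 to 918, and Crem, the activator of spermatid genes, was intermediate, at 277, 289 and 255 CPM in members, 167 to 174 in the pachytene class and 515 to 555 in round spermatids. Tcfl5 stood at 488, 517 and 530 CPM in members and 477 to 489 in the pachytene class. Among piRNA genes, 8 of 12 were below the pachytene class, with the rule genes Piwil1 and Tdrd1 left out, and Ddx25 (556, 594 and 559 CPM against 399.96 to 421) was above it. No gene of these 7 lists passed the size rule, where 0.894% of all genes compared did, so lists this small are not set apart by it.

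The UMI totals of members fell into 3 ranges in every library. The 3 tallest peaks of the density lay at 26616, 52136 and 102127 UMIs in wildtype replicate 1, at 23010, 47975 and 88906 in wildtype replicate 2 and at 35119.9, 72214.5 and 131984 in the knockout library. Each peak was 1.83 to 2.08 times the one below it. The lowest was near the tallest peak of the round spermatid class, at 28133.5, 25006.2 and 38431.5 UMIs. Smaller peaks also lay outside these 3, and 8, 12 and 11 members had totals within 10% of a limit between ranges. The limits were set at the minima of the density after the data had been seen. The low range held 104, 95 and 107 members, the mid range 35, 32 and 21 and the high range 48, 42 and 67. The high range thus held 25.7% (19.6 to 32.6), 24.9% (18.54 to 32.1) and 34.4% (27.7 to 41.5) of members, with overlapping intervals, and the low range held 55.6%, 56.2% and 54.9%.

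**Figure D2:**
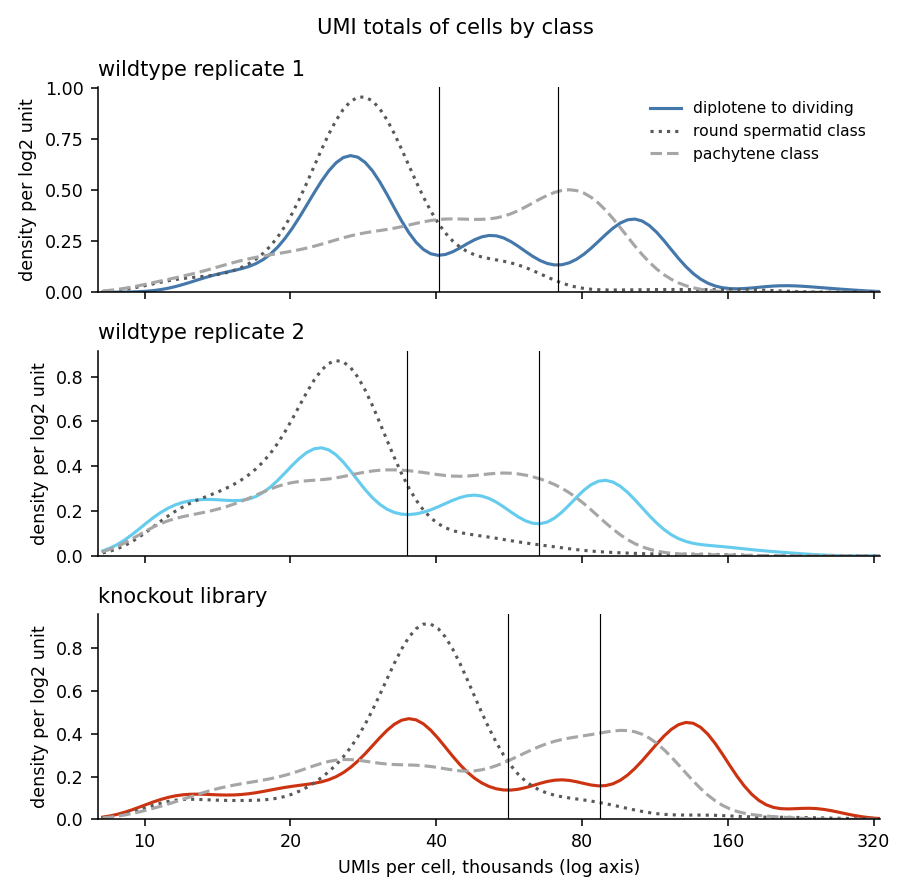
Density of the UMI total per cell (log axis, in units of 1000 UMIs) in each library for the diplotene to dividing spermatocytes (solid), the round spermatid class (dotted) and the pachytene class (dashed); vertical lines are the limits between the low, mid and high ranges. The diplotene to dividing cells show 3 main peaks in each library, the lowest near the peak of round spermatids.

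Of the genes compared, 37.8% were higher and 33.4% lower in the high than in the low range in every library, and the rest differed in direction between libraries or were level. Pou5f2 had the highest ratio of high to low range in this comparison; it went from 311, 266 and 314 CPM in the high range through 96.1, 106 and 90.7 in the mid range to 26.0, 29.3 and 20.7 in the low range. Every library followed the same order. Cks2 went from 537, 504 and 493 CPM to 101, 161 and 160, and Piwil1 from 171, 175 and 150.4 CPM to 56.6, 63.8 and 53.2. Piwil1 is a rule gene, so its levels in members are limited by the selection and test nothing. Sap30, of a histone deacetylase complex, went from 107, 94.6 and 109.5 CPM to 18.9, 16.2 and 19.8, and the testis linker histone Hist1h1t from 55.8, 55.3 and 90.8 CPM to 8.67, 13.1 and 15.5. Ccnb1 took the opposite course, from 106, 126 and 88.0 CPM in the high range to 305, 273 and 263 in the mid range and 382, 336 and 308 in the low range. Plk1 did the same (87.6, 104 and 98.2 CPM in the high range and 210.5, 198 and 181 in the low range), while Cdk1 was at 227, 241 and 205 CPM in the high range and 139, 136 and 131 in the low range. Spaca1, a rule gene, was at 13.5, 12.7 and 4.63 CPM in the high range. Nrm, an inner nuclear membrane protein, went from 2.43, 1.71 and 1.61 CPM in the high range to 51.7, 48.1 and 39.6 in the low range, and Ubald2 from 0.75, 0.98 and 0.43 CPM to 27.2, 35.6 and 27.2. Sap30, Hist1h1t, Nrm and Ubald2 were named after their values had been seen. Over all genes compared, 112 (2.04%) were at least 2-fold higher in the high than in the low range in every library and 248 (4.52%) at least 2-fold lower. Of the 39 division genes 0 and 2 were so, and of the 12 acrosome genes 0 and 6, Acrv1 and Spaca1 of the rule being among the 6. On the label, the low range, with 54.9% to 56.2% of members, had UMI totals near those of round spermatids. Whether those cells were dividing or had just divided cannot be told apart from these counts.

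**Figure D3:**
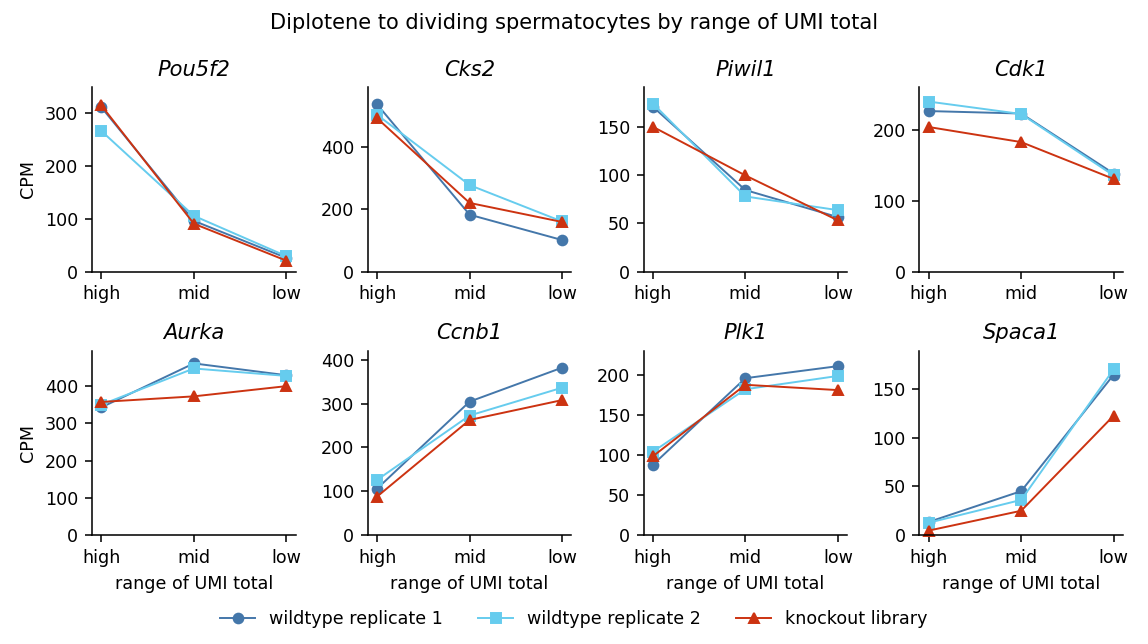
Summed level in CPM of 8 genes in members of the high, mid and low range of the UMI total, with 1 point per library and range and lines joining a library's ranges; no error bars are drawn. Pou5f2, Cks2 and Piwil1 lie highest in the high range, and Ccnb1, Plk1 and Spaca1 lie lowest there, in every library. Aurka, Piwil1 and Spaca1 are rule genes, so their levels in members depend on the selection and test nothing.

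The X-linked share of UMIs followed the ranges. Over all members it was 0.136% (0.134 to 0.139), 0.157% (0.154 to 0.160) and 0.139% (0.137 to 0.141), so the knockout share lay between those of the wildtype libraries. The pachytene class had 0.0811%, 0.0936% and 0.129% and round spermatids 1.16%, 1.18% and 1.27%. Within members the share was lowest in the high range, at 0.0359%, 0.0545% and 0.0226%, and it was 0.143%, 0.22% and 0.079% in the mid range. In the low range it reached 0.333%, 0.326% and 0.501%. The order of the ranges was the same in every library. The knockout library was lowest in the high and mid ranges and highest in the low range. Its low range also held more cells with a small rule sum: 27 of its members had a sum under 10, against 4 and 13, and these cells had medians of 17501.5, 13252 and 17322 UMIs and of 4.35%, 1.45% and 4.03% mitochondrial UMIs, with Sycp1 at 436, 458 and 1195 CPM. Their part in the low range's share was not tested beyond leaving them out. With a rule sum of at least 10, which was tried once the data had been seen, the low range gave 0.299%, 0.288% and 0.311%. Only 6 of 1084 X-linked genes reached 20 CPM in members of a library, Tsga8, Tmsb4x, Slxl1, Ribc1, Gm5941 and 1700010D01Rik. Of them, 0 passed the size rule, where 0.894% of all genes compared did, so these few genes are not set apart by it.

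**Figure D4:**
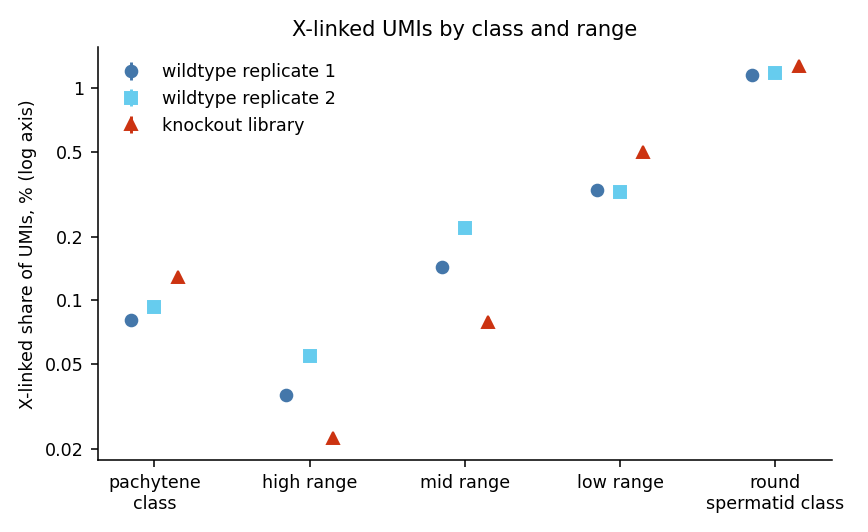
X-linked share of UMIs (log axis, %) in the pachytene class, in members of the high, mid and low range and in the round spermatid class, with 1 point per library and exact 95% intervals that are smaller than the points. The share is lowest in the high range, at 0.0226% to 0.0545%, and rises through the mid and low ranges to 1.16% to 1.27% in round spermatids.

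Members were also ranked in each library by the thinned sum of the division list and split in 3 groups of nearly equal size. Tex10 was lowest in the bottom group of each library: it was 53.2, 73.8 and 82.5 CPM in the bottom, middle and top group of wildtype replicate 1, 56.6, 78.9 and 76.7 CPM in wildtype replicate 2 and 40.2, 55.7 and 84.8 CPM in the knockout library. The knockout library had the lowest Tex10 level in the bottom and middle groups and the highest in the top group. Pou5f2 was lower in the top group than in the bottom one in every library, from 281, 200 and 274 CPM to 122, 134 and 153 CPM. In each library 12 cells were tied with a limit between groups, so the members near a limit could have fallen on either side.

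Of the 17 gene lists, 16 had 0 genes passing the size rule between knockout and wildtype members, and the list of ribosome assembly factors had 1 of 13. The lists held 183 different genes compared, so that 1 (0.546%) passed, near the 0.894% of all genes, and a count of 0 in a list of this size sets it apart from no other genes. List medians of the log2 ratio lay between −0.04 and 0.18, beside 0.04 over all genes, except for the acrosome list at −0.41, which was −0.16 without its rule genes. There, named after their values were seen, Spaca1, Fam209, Spaca4, Acrv1, Spaca3 and Spaca7 had log2 ratios of −0.77 to −0.64, for example Spaca1 at 60.1, 57.3 and 33.9 CPM, and the other 6 had −0.19 to 0.02. Acrv1 and Spaca1 were used by the rule, so their levels in members were limited by it and test nothing. The sum of Aurka, Cdc25c and Ccna1, which sets that limit, was itself lower in the knockout members, at 710 CPM against 820 and 822. Spaca1 was also lowest in the knockout library in each range of totals described above, but the same limit applies there and these levels add no support.

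The 10 genes with the largest differences in each direction included Rpl29, Mrto4 and Rrp9. Rpl29, a protein of the large ribosomal subunit (chromosome 9, 106429454 to 106431568), stood at 1000.3, 993 and 107 CPM, a log2 ratio of −3.20. The levels were similar in each range of totals: 103 to 109 CPM in the knockout library against 890.3 to 1063. Related sequences in other genes match 57.7% of its 3′ end, which makes this level uncertain. Mrto4, an assembly factor of the large subunit (chromosome 4, 139347435 to 139352576), stood at 104, 99.2 and 477 CPM, with a log2 ratio of 2.22, and 19.84% of its 3′ end is shared with pseudogenes. Rrp9, a component of the U3 particle that processes ribosomal RNA (chromosome 9, 106475963 to 106485424), stood at 9.36, 9.02 and 43.6 CPM, with a log2 ratio of 2.13, and it overlaps Parp3 on the other strand. Rrp9 was the member of the assembly factor list that passed, and Mrto4 was not on that list. Nucleolin, Ncl, had 25.8, 37.9 and 73.0 CPM and did not pass, with log2 ratios of 1.46 and 0.93 against the wildtype replicates 1 and 2. Npm1 (915, 894 and 879 CPM) and Nop10 (718, 764 and 632 CPM) did not pass either. In the pachytene class Mrto4 stood at 146, 140 and 295 CPM and in round spermatids at 55.3, 50.8 and 212 CPM.

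Among the other higher genes, 9530002B09Rik (chromosome 4, 122689275 to 122705129) gave 2 and 1 UMIs in the wildtype libraries, with upper limits of 0.73 and 0.74 CPM, and 755 UMIs in the knockout library, at 53.7 CPM (49.97 to 57.7). Sh3bgrl3, a small thioredoxin-like protein, stood at 8.95, 9.29 and 85.5 CPM, the kinase gene Pdik1l at 2.44, 1.99 and 25.7 CPM, and the poly(A) polymerase gene Tent5b at 8.03, 9.68 and 36.2 CPM. The ADP-ribosyltransferase gene Art1 stood at 17.1, 21.6 and 78.2 CPM, Tceanc2 at 18.4, 19.1 and 63.6, Tmem234 at 30.6, 37.9 and 120.3, and the non-coding 1700034K08Rik at 10.6, 11.1 and 48.3. In every one of these the knockout value lay above both wildtype values by more than 3 times. Among lower genes, the zinc finger gene Zfp990 had 153, 186 and 2 UMIs (15.6, 24.7 and 0.14 CPM), with 48.97% of its 3′ end shared with related genes. The collagen gene Col6a4 stood at 24.0, 27.3 and 0.85 CPM, although its levels in round spermatids were alike, at 60.0, 61.6 and 56.3 CPM. Jam2, a junctional adhesion protein, stood at 25.3, 27.1 and 3.70 CPM and the co-chaperone gene Dnajc25 at 31.5, 29.4 and 5.69 CPM. Gm8797 (213, 272 and 27.0 CPM) shares 93.04% of its 3′ end with ubiquitin genes and is uncertain. The antisense genes 1700034H15Rik, 4930500F10Rik and Gm17227 and the long non-coding 4933433G15Rik complete the 10 lower genes, and the antisense ones are uncertain, since the sources used here do not say how strand was counted. Overlaps on the other strand also apply to Sh3bgrl3, Art1, Tent5b, Tceanc2, Tmem234 and Col6a4.

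The passing genes were gathered on few chromosomes. Chromosome 4, which carries Tex10, held 19 of them among 362 genes compared (5.25%), 13 higher and 6 lower. Chromosome 9 held 15 of 316 (4.75%) and chromosome 14 held 7 of 192 (3.65%), all 7 lower. The other chromosomes together held 8. On chromosome 4, 14 of the 19 lay above 110 Mb, as did 213 of the 362 genes compared. This limit was not part of the planned design, and Tex10, which starts at 48430858, lies below it. On chromosome 9, 8 of the 24 genes compared in a stretch of 3 Mb passed (105162156 to 107542193), among them Rpl29, Rrp9, Col6a4 and 4930500F10Rik, 4 in each direction; this window was chosen after the positions had been seen. Part of the 49 also passed in the neighbouring stages. Of them, 21 also passed in the same direction in the pachytene class, where 41 genes passed (0.677%), and 26 in round spermatids, where 64 did (1.1%). None passed in opposite directions.

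**Figure D5:**
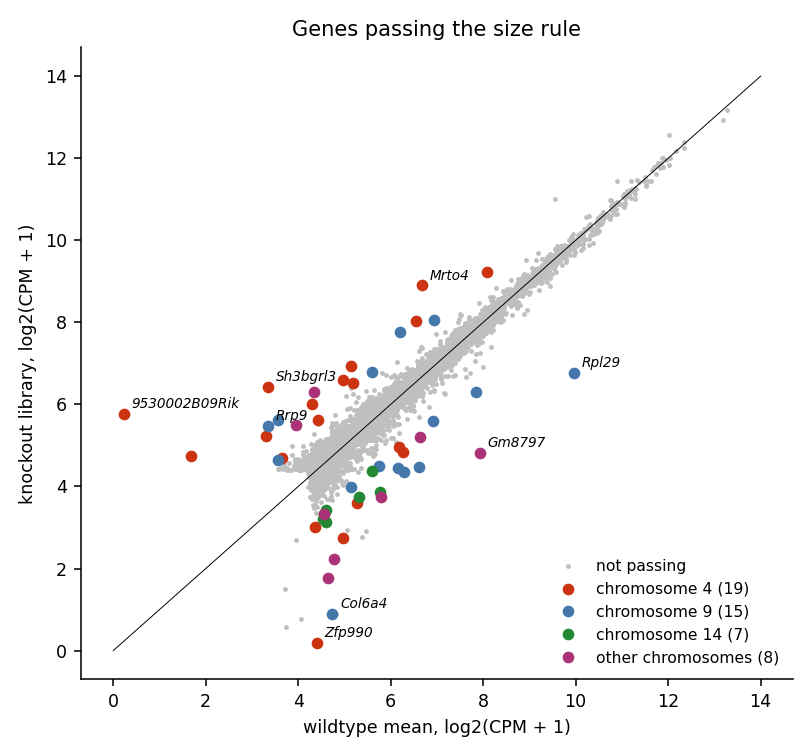
Level of each of 5481 genes in members, as log2(CPM + 1), with the mean of the wildtype libraries on the horizontal axis and the knockout library on the vertical axis; the line marks equal levels and coloured points are the 49 genes that passed the size rule, by chromosome. Of the coloured points 19 are on chromosome 4, 15 on chromosome 9, 7 on chromosome 14 and 8 elsewhere.

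Within the ranges of the UMI total, the comparison gave other counts. In the high range 47 genes passed (0.889%), of which 39 were among the 49. The mid range gave 119 (2.09%), with 35 shared, on 21 knockout cells. In the low range 196 passed (3.17%), 161 of them higher in the knockout library, with 33 shared. That range held the knockout cells with a small rule sum, and its spermatogonial markers summed to 353 CPM in the knockout library against 124 and 166, its early spermatocyte markers to 380 CPM against 117 and 226, and its Sertoli markers to 301 CPM against 102 and 17.8. In the mid range the Sertoli sum was highest in wildtype replicate 2, at 311 CPM. The part of these cells in the counts was not tested beyond the next comparison. With a rule sum of at least 10 the low range gave 57 genes (0.995%), 27 higher and 30 lower, with 34 shared, and the spermatogonial and Sertoli sums of the knockout library were then 118 and 52.1 CPM, against 74.8 and 93.3 and against 100.8 and 13.3 CPM in the wildtype libraries. When levels were taken as the mean of each cell's own CPM, which gives small cells more weight, 124 genes passed, 86 higher and 38 lower.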

How the data were processed

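Single-cell RNA of adult mouse testis was counted in 2 wildtype libraries and 1 knockout library. The values are UMI counts per gene and cell, deposited by the authors as matrices; Cell Ranger 4.0.0, Seurat 4.0.5 and the build mm10 stand in the submitters' processing notes, and the use of strand is not given in the sources used here. The number of columns belonging to no sample was 0.

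Members were found by the rule given above, and UMIs were summed per library and scaled to CPM. The members and gene lists were chosen with earlier results of these data known. Named genes were the markers and Tex10, the first 10 leading genes, the 10 higher and 10 lower genes with the largest smaller ratio, any list gene that passed, the 4 highest genes of each list and the 5 most alike to the rule genes; others named were chosen after their values were seen. Intervals are exact Poisson (levels) or Clopper-Pearson (shares) at 95%. Ranges of the UMI total were set at minima of a density with a bandwidth of 0.2 log2 units. Gene positions were matched to GRCm38 for 32235 of 32285 genes. Doublets were not removed: Scrublet marked 8, 30 and 8 barcodes automatically, and an alternative left out the top 8% of scores, 4, 10 and 9 of them members. Other alternatives changed the UMI, mitochondrial and protamine limits, the rule sum, scaling, CPM minimum and fold, left out a wildtype library, or used edgeR 4.0.16 and DESeq2 1.42.0 on the 3 sums in R 4.3.3, where the lone knockout library is assumed to vary like the wildtype pair. Python 3.11.15, pandas 2.3.3, scipy 1.17.1 and scanpy 1.11.5 were used. The size rule and both count tests were tested on simulated data.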

Additional observations from a re-analysis of the deposited data

How the results depend on the processing

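No paired analysis was possible because the knockout group has 1 library and its number pairs it with no wildtype mouse. The knockout group's single library also means that its spread is unknown, so a count from edgeR or DESeq2 measures the wildtype pair's spread alone; depth limits genes under 20 CPM and the mid range, with 21 knockout cells. The cause of the changes below was not tested. The difference in member share was 0.52 percentage points and changed sign with a rule sum of at least 10 (−0.68) and with the rule on thinned cells (−0.72); leaving out 1 wildtype library gave −1.38 to 2.42. The count of genes passing the size rule, 49, became 124 with the mean of each cell's own CPM, 185 with no CPM minimum, 26 with a minimum of 50 CPM and 157 at 1.5-fold. It was 993 with edgeR's quasi-likelihood test (450 higher and 543 lower; 1672 at an unadjusted p under 0.05) and 224 with DESeq2's Wald test (64 and 160), both at an adjusted p under 0.05. It was 196 in the low range and 119 in the mid range, 30 without chromosome 4 and 8 without chromosomes 4, 9 and 14, and 64 to 70 without 1 wildtype library. Tex10's log2 ratio, −0.24, was −0.16 with the mean of each cell's CPM, −0.078 in the low range, 0.23 in the mid range, −0.38 in the high range and −0.039 with the ranges weighted equally; without 1 wildtype library it was −0.27 to −0.21. The division list's log2 ratio, 0.015, was 0.027 at the higher minimum of UMIs per cell, 0.065 with the mean of each cell's CPM, 0.119 in the low range, 0.141 in the mid range and 0.085 with equal weights. It was −0.019 with DESeq2 size factors, −0.013 with TMM and −0.019 in the high range, and 0.008 to 0.022 without 1 wildtype library. The median of all genes compared was 0.04 by total UMIs, 0.004 and 0.009 by the other scalings. The difference in X-linked share, −0.008 percentage points, was −0.023 with a mitochondrial limit of 5%, −0.048 with a rule sum of at least 10, −0.044 with the thinned rule, −0.103 in the mid range and −0.023 in the high range; it was 0.171 in the low range, and −0.018 to 0.0025 without 1 wildtype library. The count of leading genes was 101 to 117 under the other planned settings and 121 to 144 without 1 wildtype library.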
